A study of Rattus norvegicus with 15 samples.

Results

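Rat cortical astrocytes that had received hydrogen peroxide (H2O2) were compared with astrocytes that had received the vehicle. The comparison used 6 of the 15 RNA samples of the study, 3 of the H2O2 group and 3 of the control group, and the samples were taken by their labels. The H2O2 group was exposed to 100 µM H2O2 for 30 min, and control cells were given the vehicle, sterile water, instead. RNA was collected 24 h and a further 6 h later, the 6 h being the time that other wells spent with mitochondria or with encapsulated mitochondrial RNA. The cells were primary cultures from the cortex of newborn Sprague Dawley rats, labelled wild type, with no transgene. The study chose which RNA to sequence by a random draw and calls the 3 samples of a group biological replicates, while the labels do not say which culture each came from, and the p-values below measure the spread between these samples. The sample descriptions mention RNA from mitochondria-enriched fractions, whereas the study's account speaks of the astrocytes themselves; the values are read here as whole-cell RNA.

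H2O2 is a membrane-permeant oxidant that cells make as a by-product of respiration and signalling, and that catalase and peroxidases remove. Astrocytes, the glial cells that support neurons with metabolites and antioxidants, are used in culture to study how brain cells live through an oxidant pulse. The oxidant was washed away after the pulse, so RNA taken a day later reports a late state rather than the first response. Mitochondria are a main source and target of oxidants, and their own small genome encodes subunits of the respiratory chain and of ATP synthase.

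The samples held between 35315654 (H2O2 replicate 1) and 46778663 (control replicate 3) reads counted on genes, and between 18814 and 19559 genes had at least 1 read. Counts of the 3 samples of a group differed from each other by far more than counting error, with a chi-square per gene of 17.0 to 59.7 over the 6 pairs, so no sample was a copy of another. Genes are given by the Ensembl identifiers of the files, with positions on Rnor6.0. The files do not pair these identifiers with symbols, and of the 32552 listed, 0 could be looked up in the reference table given. The functions of nuclear genes and the markers of astrocytes or of other cells were therefore not analysed here, and no promoter sequence could be tied to a gene. The 13 protein-coding genes of the mitochondrial chromosome are the exception, since their order along it is conserved across placental mammals. In bulk RNA, fewer cells of a type and less RNA per cell cannot be told apart.

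H2O2 left more genes lower than higher. Of 15650 genes with enough reads to be tested, 465 were higher (2.97%) and 660 lower (4.22%) in the H2O2 samples than in control at an adjusted p under 0.05 (edgeR quasi-likelihood test with Benjamini-Hochberg adjustment), together 1125 genes (7.19%). Changes of over 2-fold were seen for 146 of the higher genes (0.933% of genes tested) and 262 of the lower genes (1.67%). With each sample left out in turn they were seen for 79 to 134 higher and 136 to 360 lower genes. With the replicate number as a block the counts were 156 and 481. Over 4-fold, the counts were close to even, with 41 higher and 37 lower genes of the 15650 tested. Part of these were scarce genes. Among called genes below 1 normalized count per 1000000, the median log2 fold change was 2.37 for the 26 higher and -2.83 for the 23 lower. The median size of the change was 0.69 on the log2 scale for the higher genes and 0.85 for the lower genes. The median log2 fold change of all tested genes was 0.0058, a value near 0 that the scaling itself sets.

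**Figure D1:**
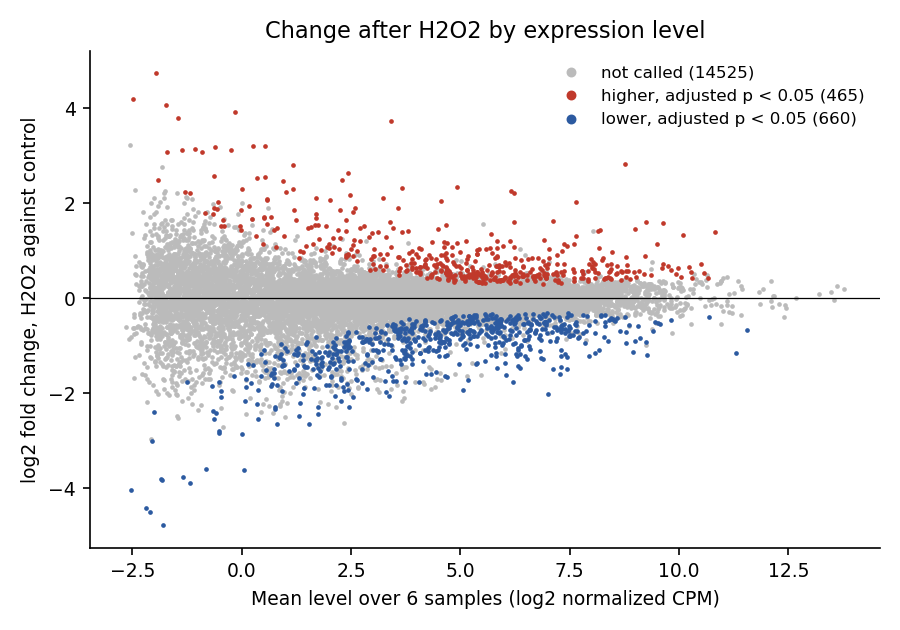
Each point is 1 of the 15650 tested genes. The horizontal axis is its mean level over the 6 samples (log2 of normalized CPM) and the vertical axis its log2 fold change, H2O2 against control. Red marks the 465 genes called higher and blue the 660 called lower (edgeR adjusted p under 0.05), and the band of called genes reaches closer to 0 where the level is high.

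Small changes made up much of the response. Less than a 1.5-fold change was measured for 181 of the higher genes and 161 of the lower genes. All 1125 called genes had groups that did not overlap, that is, every H2O2 sample lay on the same side of every control sample. Of all tested genes, 4385 (28.0%) had such groups. The calls were made on the same values, so the separation of called genes only describes them. The smallest adjusted p was 0.000424 in either direction (edgeR). At an unadjusted p under 0.05, 3512 genes (22.4%) differed.

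How many genes were called followed their level, given here as CPM, the normalized counts per 1000000. Below 1 CPM, 26 higher and 23 lower genes were called of 2330, with a median standard error of 0.54 on the log2 scale over the genes tested there. Between 1 and 10 CPM the counts were 88 higher and 183 lower of 3989, with a median standard error of 0.25. Between 10 and 100 CPM they were 225 and 331 of 7283. At 100 CPM or more, 126 higher and 123 lower genes were called of 2048, a near-even split at a median standard error of 0.10. The surplus of lower genes therefore lay between 1 and 100 CPM.

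The genes called lower had longer median exon length and span than all tested genes, and the higher genes differed less from them. The exons of the lower genes had a median combined length of 2873.5 bases and those of the higher genes 2349 bases, beside 2267 bases for all tested genes. The genomic span was 28892 bases for the lower genes, 20846 for the higher genes and 18949 for all. Genes listed with a single exon made up 3.79% of the lower, 3.44% of the higher and 7.69% of all tested genes. Median levels were 24.4 CPM for the lower genes, 38.5 CPM for the higher genes and 17.2 CPM for all, and the part of level and length in these counts was not tested.

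The genes called higher took between 4.27% and 4.31% of all counts in the control samples and between 6.62% and 7.17% in the H2O2 samples. The genes called lower took between 5.82% and 6.39% in control and between 3.48% and 3.94% after H2O2. These genes were chosen on the same samples, so the shares only describe how much of the RNA the calls cover. The 10 genes with most counts took 8.70 ± 0.33% of counts in control and 8.92 ± 0.29% after H2O2 (SD, n = 3 each; two-sided exact permutation p = 0.3, where 0.1 is the smallest the design allows).

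The number of calls depended on single samples. Without control replicate 2, 145 genes were called higher and 231 lower, and without control replicate 3 the counts were 195 and 287. Without H2O2 replicate 2 they were 227 and 350, and without H2O2 replicate 3 they were 217 and 307. Leaving out control replicate 1 gave 356 and 677, and leaving out H2O2 replicate 1 gave 497 and 669. These were not all the same genes, since 67.5% of the higher and 79.1% of the lower calls were kept without control replicate 1, and 77.4% and 74.4% without H2O2 replicate 1.

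**Figure D2:**
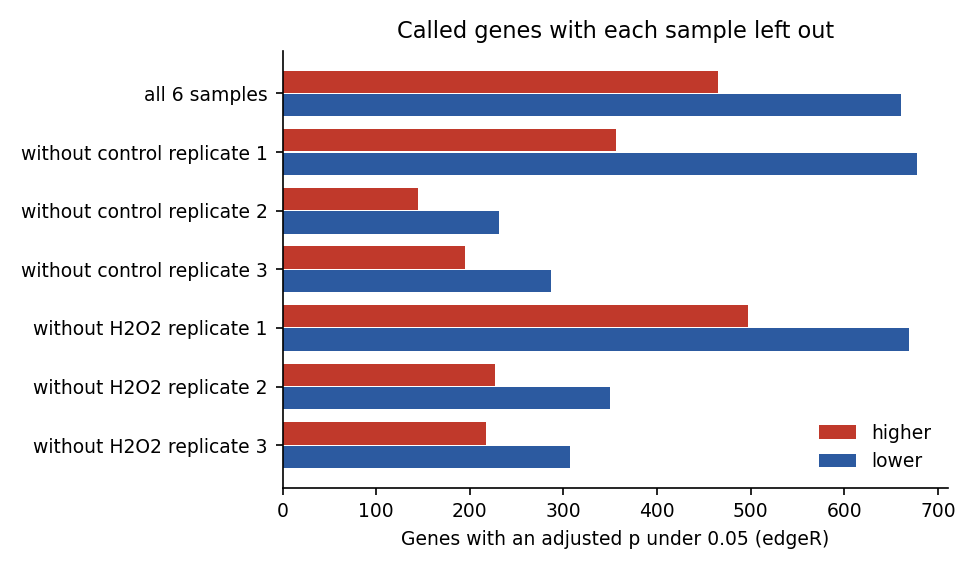
Bars give the number of genes with an adjusted p under 0.05 (edgeR) when all 6 samples are used and when each is left out, red for higher and blue for lower after H2O2. The counts fall to 145 higher and 231 lower without control replicate 2 and are 497 and 669 without H2O2 replicate 1.

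The 5 largest increases and 5 largest decreases were taken from called genes with a mean of at least 1 CPM and groups apart. They lay on 7 chromosomes, and chromosome 4, with 854 of the 15650 tested genes, held 4 of them. The largest increase was that of ENSRNOG00000009734 (chr4:61771970-61828657, plus strand, 30 exon entries). It was at 0.989, 1.64 and 1.84 CPM in control and at 10.5, 18.6 and 30.5 CPM after H2O2. As the choice of these genes required, all H2O2 samples lay above all control samples. The H2O2 samples differed among themselves by about as much as their mean. The log2 fold change was 3.73 ± 0.41 (standard error), a 13.3-fold increase (edgeR adjusted p = 0.0022).

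ENSRNOG00000001414 (chr12:22641104-22651482, plus strand) combined a large change with a high level. Its values were 88.4, 101 and 134 CPM in control and 501, 848 and 954 CPM after H2O2. The lowest H2O2 sample was far above the highest control sample, and the log2 fold change was 2.83 ± 0.25 (7.11-fold, edgeR adjusted p = 0.0013). The other 3 large increases were of genes that were scarce in control.

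ENSRNOG00000008057 (chr7:143059764-143075907, plus strand) had 0.148, 0.434 and 0.260 CPM in control and 1.72, 3.55 and 2.57 CPM after H2O2. ENSRNOG00000009768 (chr4:79557854-79565097, plus strand) had 0.198, 0.289 and 0.217 CPM in control and 1.67, 1.29 and 3.55 CPM after H2O2. ENSRNOG00000002164 (chr14:34354503-34381828, plus strand) had 0.544, 0.530 and 0.607 CPM in control and 2.28, 3.93 and 5.56 CPM after H2O2. For these genes the control values rest on 6 to 28 reads per sample and the H2O2 values on 51 to 229. Their log2 fold changes were 3.21 ± 0.46, 3.20 ± 0.48 and 2.80 ± 0.36, with adjusted p of 0.0058, 0.0071 and 0.0040 (edgeR).

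The largest decrease was that of ENSRNOG00000015719 (chr4:117293620-117296082, minus strand, 2 exon entries). It was at 1.78, 1.69 and 2.34 CPM in control and at 0.167, 0.152 and 0.146 CPM after H2O2, which is 70 to 108 reads against 6 reads in each sample. The H2O2 samples lay close together and far below control. The log2 fold change was -3.62 ± 0.36, a 12.3-fold decrease (edgeR adjusted p = 0.0016).

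The other 4 large decreases were smaller, with log2 fold changes between -2.64 and -2.49. ENSRNOG00000019022 (chr19:57502308-57514896, minus strand) had 3.41, 1.83 and 3.86 CPM in control and 0.556, 0.508 and 0.389 CPM after H2O2. ENSRNOG00000001959 (chr11:37891156-37914983, minus strand) had 6.11, 4.41 and 4.51 CPM in control and 1.00, 1.12 and 0.291 CPM after H2O2. In both genes the groups were several-fold apart, and in the second, H2O2 replicate 3 was lower than the other H2O2 samples. ENSRNOG00000012995 (chrX:65796429-65804591, plus strand) had 1.63, 2.55 and 2.43 CPM in control and 0.278, 0.254 and 0.583 CPM after H2O2. ENSRNOG00000006174 (chr4:94696965-95442778, plus strand), which spans the longest stretch of the 10, had 3.14, 4.82 and 4.59 CPM in control and 0.946, 0.660 and 0.632 CPM after H2O2. The adjusted p of these 4 genes lay between 0.0027 and 0.010 (edgeR).

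**Figure D3:**
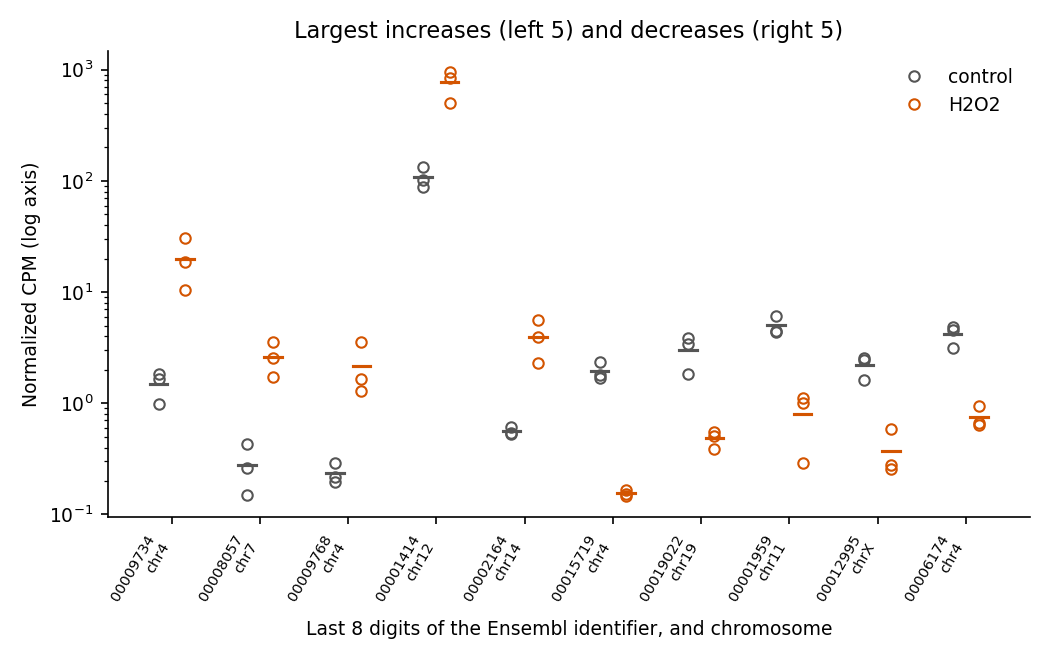
Circles are the single samples and bars the means of 3, in normalized CPM on a log axis, for control (grey) and H2O2 (orange). The 5 genes on the left rose and the 5 on the right fell. The groups of each are apart because this was required for the choice, and ENSRNOG00000001414 is the only one of the 10 above 100 CPM.

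Of the calls of these 10 genes, 0 were lost in any alternative that gave a value, including the 6 fits that left out a sample. The filter of 10 counts in every sample removed ENSRNOG00000008057, ENSRNOG00000009768 and ENSRNOG00000015719, which had 11 alternatives and the others 12. Each of these has few reads in 1 group and could pass the main filter through the other group. All were chosen as the largest called changes in the same samples, so the kept calls only describe them. ENSRNOG00000009734 ranged from 3.28 to 4.04 on the log2 scale and ENSRNOG00000015719 from -3.71 to -3.46. Larger fold changes, up to 4.73 higher and 4.78 lower on the log2 scale, were measured below 1 CPM and depend on few reads.

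Among the called genes with most counts, a pair stood out by size. ENSRNOG00000012772 (chr19:38422164-38437180, plus strand) had 984, 1214 and 786 CPM in control and 2599, 3004 and 2205 CPM after H2O2. Its H2O2 values were all well above control, with a log2 fold change of 1.39 ± 0.18 (2.62-fold, edgeR adjusted p = 0.0038). ENSRNOG00000058039 (chr1:252537615-252550394, minus strand) had 3145, 3408 and 3904 CPM in control and 1618, 1776 and 1321 CPM after H2O2. It fell by 1.15 on the log2 scale (standard error 0.14, edgeR adjusted p = 0.0029), a 2.22-fold decrease. Both calls held in all 12 alternatives.

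The other 4 abundant called genes changed less. ENSRNOG00000023781 (chr7:117230319-117289961, minus strand) had 1330, 1336 and 1452 CPM in control and 1974, 1754 and 1816 CPM after H2O2 (log2 fold change 0.43 ± 0.09, edgeR adjusted p = 0.032). ENSRNOG00000024082 (chr8:58870516-58914603, plus strand) had 1071, 1347 and 1334 CPM in control and 1858, 1819 and 1757 CPM after H2O2 (0.53 ± 0.11, edgeR adjusted p = 0.025). The first lost its call in 6 and the second in 5 of 12 alternatives. The second also overlaps an opposite-strand gene that was called higher by 81 bases, and strand was stated to be used in counting only where applicable.

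ENSRNOG00000012094 (chr6:108500112-108596569, minus strand) had 2701, 4104 and 4295 CPM in control and 2458, 2192 and 2303 CPM after H2O2. Control replicate 1 was nearer to the H2O2 samples than to the other control samples, and the log2 fold change of -0.67 ± 0.17 passed the test narrowly (edgeR adjusted p = 0.049). ENSRNOG00000000571 (chr20:29831314-29856875, plus strand) had 1822, 1875 and 1951 CPM in control and 1482, 1310 and 1473 CPM after H2O2 (-0.40 ± 0.09, edgeR adjusted p = 0.038). Each lost its call in 6 of 12 alternatives. Per length, the mean level over the 6 samples was 1818 RPKM (CPM per kilobase of exon) for ENSRNOG00000058039 and 1139 RPKM for ENSRNOG00000012772, beside 448 RPKM for ENSRNOG00000012094. By CPM, ENSRNOG00000012094 had the highest mean of the 6 in control (3700 CPM) and ENSRNOG00000012772 after H2O2 (2602 CPM).

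Called genes also stood next to each other. In 7 places, 3 or more neighbouring tested genes were called in the same direction with no other tested gene between them, in 3 places higher and in 4 lower. These runs held 22 genes, and 0 pairs of genes within a run overlapped. Whether this many runs differ from what the share of called genes gives was not tested.

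The run with the largest changes was on chromosome 12 (chr12:22641104-22726982) and held 4 genes, all higher after H2O2. It starts with ENSRNOG00000001414, described above. ENSRNOG00000001416, on the opposite strand, had 65.5, 63.8 and 108 CPM in control and 244, 348 and 374 CPM after H2O2, a log2 fold change of 2.03 ± 0.23 (edgeR adjusted p = 0.0026). ENSRNOG00000001415, between them, rose by 0.75 and ENSRNOG00000001417, the last, by 0.43 on the log2 scale. ENSRNOG00000001414 and ENSRNOG00000001416 kept their calls in all 12 alternatives, while ENSRNOG00000001415 lost its call in 4 and ENSRNOG00000001417 in 5.

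The run on chromosome 4 (chr4:62391770-62526724) held 3 genes on the minus strand, all higher. Its last gene, ENSRNOG00000026919, had 12.6, 11.7 and 14.5 CPM in control and 34.2, 38.3 and 41.2 CPM after H2O2. The samples of each group lay close together, and the log2 fold change was 1.55 ± 0.12 with an adjusted p of 0.00081 (edgeR). The other members rose by 0.65 (ENSRNOG00000026958) and 0.58 (ENSRNOG00000010421), and lost their calls in 3 and 2 of 12 alternatives. The other higher run, on chromosome 6 (chr6:42180894-42312935), held 3 genes with log2 fold changes of 0.41 to 0.64 and adjusted p of 0.0095 to 0.040 (edgeR). ENSRNOG00000024338 lost its call in 7, ENSRNOG00000004496 in 6 and ENSRNOG00000005126 in 1 of 12 alternatives.

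Of the lower runs, that on chromosome 7 (chr7:94130852-94563001) changed most. ENSRNOG00000008615 had 5.91, 4.34 and 8.47 CPM in control and 2.34, 1.37 and 1.55 CPM after H2O2 (log2 fold change -1.83 ± 0.31, edgeR adjusted p = 0.011). ENSRNOG00000004089, at the other end, had 6.62, 8.80 and 5.57 CPM in control and 2.36, 1.52 and 1.99 CPM after H2O2 (-1.84 ± 0.25, edgeR adjusted p = 0.0051). The gene between them, ENSRNOG00000008697, fell by 0.71 and lost its call in 5 of 12 alternatives.

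The lower run on chromosome 1 (chr1:213750192-213811901) held 3 short genes of 2 exon entries each, with 568 to 700 bases of exon. ENSRNOG00000015078 had 110, 98.9 and 114 CPM in control and 56.1, 52.9 and 46.3 CPM after H2O2, a log2 fold change of -1.06 ± 0.10 (edgeR adjusted p = 0.0016). ENSRNOG00000014936 fell by 0.52 and ENSRNOG00000004273 by 0.97, each with an adjusted p just under the threshold (0.045 and 0.049, edgeR). The first lost its call in 4 and the second in 9 of 12 alternatives, among them the joint fit of all 15 samples (adjusted p = 0.060, edgeR), and without either call there is no run of 3 there.

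The 2 other lower runs were wider. On chromosome 2 (chr2:152839117-154418920), 3 genes over 1579804 bases had log2 fold changes of -1.34 (ENSRNOG00000014793), -1.29 (ENSRNOG00000009514) and -0.69 (ENSRNOG00000009955), the last of which lost its call in 2 of 12 alternatives. On chromosome 18 (chr18:3616878-3940838), 3 genes had log2 fold changes of -0.88 (ENSRNOG00000012016), -0.54 (ENSRNOG00000046744) and -0.55 (ENSRNOG00000011300), and lost their calls in 2, 5 and 5 of 12 alternatives. Of the 22 genes in all runs, 8 kept their calls in every alternative that gave a value.

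**Figure D4:**
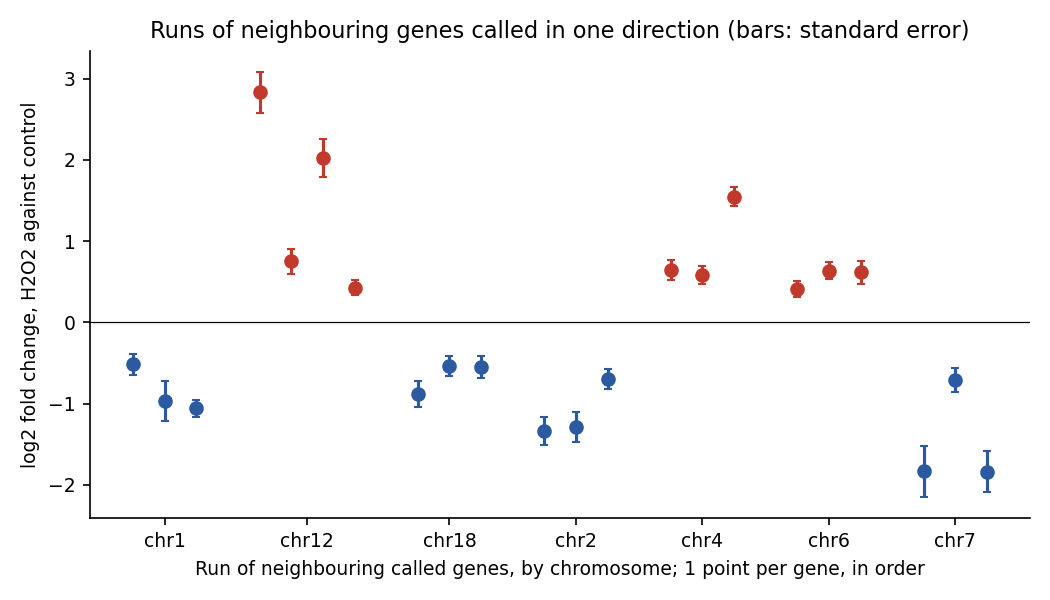
Points are the log2 fold changes (H2O2 against control) of the 22 genes in the 7 runs of neighbouring called genes, in order along each chromosome, with bars for the standard error; red is higher and blue lower. The changes within a run share their direction and differ in size, from 0.43 to 2.83 on chromosome 12.

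By chromosome, the shares called are given beside those over all tested genes, 2.97% higher, 4.22% lower and 7.19% in either direction. Chromosome 18 had 5 higher and 30 lower genes of 417 tested (1.20% and 7.19%). The share called in either direction was highest on chromosome 13, at 10.1% of 484 genes, and on chromosome 2, at 9.90% of 1020. Chromosome 14 was at 5.05% of 515 genes. These chromosomes were singled out after their values were seen, and the differences between chromosomes were not tested.

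The protein-coding genes of the mitochondrial genome showed no change that passed the test. Complex I subunits (ND1 to ND6 and ND4L), cytochrome b of complex III (CYTB), complex IV subunits (COX1 to COX3) and ATP synthase subunits (ATP6 and ATP8) make up the 13 genes, all of which were tested. Their log2 fold changes ran from 0.04 (COX3) to 0.49 (ND2) with a median of 0.22, beside 0.0058 for all tested genes. Of the 13, 0 were called by edgeR (adjusted p from 0.22 to 0.93), 0 by DESeq2, and 1 had an unadjusted p under 0.05, namely ND2. With 7.19% of all tested genes called, 0 of 13 does not set these genes apart. The groups overlapped for all 13 genes.

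ND2 had 1648, 1265 and 1069 CPM in control and 1915, 2317 and 1352 CPM after H2O2. COX1, the member with most counts, had 12907, 10218 and 11162 CPM in control and 12485, 16043 and 12213 CPM after H2O2. H2O2 replicate 2 was the highest of the 6 samples for both. The positive sign of all 13 rested on it in part, since without that sample 7 of the 13 turned negative and the median was -0.05.

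**Figure D5:**
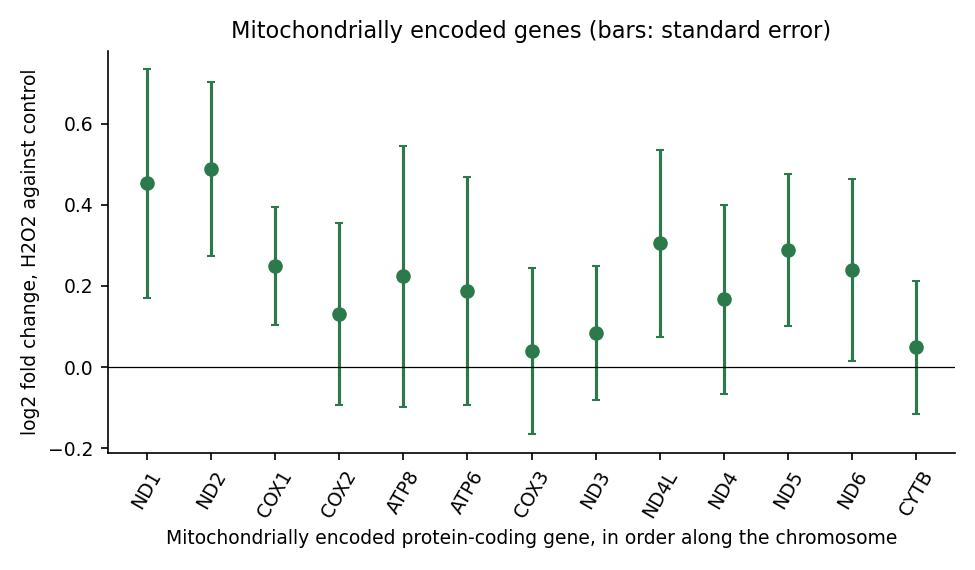
Points are the log2 fold changes (H2O2 against control) of the 13 protein-coding mitochondrial genes, in order along the chromosome, with bars for the standard error. All lie between 0.04 and 0.49 with 0 called.

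The share of all counts on the mitochondrial chromosome was 4.05%, 3.16% and 2.87% in control and 3.81%, 4.61% and 2.97% after H2O2. It covers the 13 protein-coding genes and 22 short intervals listed there, and no ribosomal RNA gene is among them. The samples of the groups were interleaved. The difference of 0.434 percentage points between the means (3.36 ± 0.61% and 3.79 ± 0.82%, SD, n = 3 each) was smaller than the spread within either group (two-sided exact permutation p = 0.6). With H2O2 replicate 2 left out it was 0.0282 percentage points, and with H2O2 replicate 3 left out 0.848.

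Of the 22 short mitochondrial intervals, at most 75 bases long and of the size of transfer RNA genes, 15 passed the filter and 1 was called, a share near the 7.19% of all tested genes. All 15 had a positive log2 fold change, with a median of 0.74, and the groups did not overlap for 8 of them, beside 28.0% of all tested genes. Most were scarce, and an interval could pass the filter through the group in which it was higher, so these values describe the 15 and not all 22. ENSRNOG00000029145 (MT:15348-15415, minus strand) had 24.1, 21.8 and 18.7 CPM in control and 33.4, 59.1 and 33.8 CPM after H2O2. The groups did not overlap, and the log2 fold change was 0.97 ± 0.22 (edgeR adjusted p = 0.036). The call was lost without control replicate 2 (adjusted p = 0.12, edgeR) and without control replicate 3 (adjusted p = 0.13, edgeR). Whether reads there came from mature transfer RNA or from longer transcripts was not tested.

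The 9 samples that were stressed in the same way and then given mitochondria, MitoCoat (lipid-coated mitochondria) or MitoCoat-mRNA give the levels of the named genes in other stressed wells. All 15 samples were normalized together for this, the control samples are those used above, and no test was made. ENSRNOG00000009734 was at 15.8 to 59.0 CPM in the 9 samples, beside 1.00 to 1.86 CPM in control. ENSRNOG00000001414 was at 920 to 1383 CPM, beside 89.9 to 135 CPM in control. ENSRNOG00000015719 was at 0.0925 to 0.550 CPM, beside 1.71 to 2.36 CPM in control.

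These genes lay on the H2O2 side of control in all 9 samples. Of the 10 genes with the largest changes, ENSRNOG00000001959 was the exception. Its mean was 12.8 ± 1.8 CPM with mitochondria and 8.32 ± 2.26 CPM with MitoCoat, beside 1.27 ± 0.33 CPM with MitoCoat-mRNA, 0.804 ± 0.444 CPM with H2O2 alone and 5.07 ± 0.98 CPM in control (SD, n = 3 each).

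Of the 6 abundant called genes, the groups overlapped in ENSRNOG00000023781, at 1266 to 1668 CPM in the 9 samples and 1351 to 1465 CPM in control, and in ENSRNOG00000024082, at 1308 to 2175 CPM and 1089 to 1362 CPM. ENSRNOG00000012772 was at 2336 to 3284 CPM in the 9 samples, above its 794 to 1228 CPM in control. The others lay below control, ENSRNOG00000058039 at 1077 to 1672 CPM beside 3197 to 3939 CPM, ENSRNOG00000000571 at 1090 to 1498 CPM beside 1851 to 1968 CPM, and ENSRNOG00000012094 at 1394 to 2689 CPM beside 2746 to 4334 CPM.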

How the data were processed

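RNA of primary rat astrocytes was sequenced by the authors, who used Trimmomatic for trimming, STAR for alignment to Rnor6.0 and featureCounts (Subread 1.5.2) for counting uniquely mapped reads on exons. The deposited files hold raw counts, unnormalized, 1 file per sample; 1 further file, a copy of a sample's file, was not used. The labels and the study differ on the serum concentration, and the labels name both total and poly(A) RNA. Counts were filtered with filterByExpr, normalized by TMM and tested on the 6 samples with the quasi-likelihood test of edgeR 4.0.16 in R 4.3.3. Standard errors are the log2 fold change over the square root of its F statistic. A gene was called when its Benjamini-Hochberg adjusted p was under 0.05, and figures drawn with matplotlib 3.10.9.

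Named genes were the 5 largest changes in each direction (called, mean of at least 1 CPM, groups apart), the 3 called genes of highest CPM in each direction, mitochondrial genes and runs of at least 3 called neighbours. Members and lists were chosen with earlier results of these data known. Symbols recalled for the identifiers were tried against RefSeq positions (GRCr8) and not used, because the trial was circular. Alternatives were DESeq2 1.42.0, edgeR on all 15 samples, RLE size factors, 2 other filters, the replicate number as a block and each sample left out in turn.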

Additional observations from a re-analysis of the deposited data

How the results depend on the processing

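Higher and lower counts were 465 and 660 with all 6 samples. DESeq2 called 784 genes higher and 1101 lower, and edgeR fitted to all 15 samples 809 and 980. RLE size factors gave 467 and 670, keeping any gene with 1 count 488 and 781, and requiring 10 counts in every sample 467 and 660. Leaving out each sample gave 145 to 497 higher and 231 to 677 lower genes, 79 to 134 higher and 136 to 360 lower by over 2-fold, and a difference in mitochondrial share of 0.0282 to 0.848 percentage points. With the replicate number as a block, 505 and 974 genes were called, and 481 were lower by over 2-fold against 262 without it. Same-numbered samples correlated at 0.31, -0.01 and 0.60 in their deviations from the group means (median 0.31). Differently numbered samples correlated at -0.55 to 0.18 (median -0.18). The main fit did not pair the samples. Whether the numbers mark a shared source was not tested, and a block fit may carry none. DESeq2, the joint fit and the block each kept at least 89.9% of the calls in either direction. Across 441 refits of the 37 named nuclear genes, 358 stayed on the same side of the threshold and 83 lost the call.

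Among the 13 mitochondrial protein-coding genes, 14 log2 fold changes turned negative when a sample was left out, 7 without H2O2 replicate 2, 4 without control replicate 3 and 3 without control replicate 2. Over the 6 samples left out in turn, they ranged from -0.121 to 0.310 for COX2, -0.0501 to 0.498 for ATP8, -0.0583 to 0.436 for ATP6, -0.190 to 0.201 for COX3, -0.0645 to 0.246 for ND3, -0.0541 to 0.376 for ND4 and -0.122 to 0.181 for CYTB. Of the 13 genes, 0 were called in any of these fits. The cause was not tested for any of these changes. The alternatives for gene lists were not run, since identifiers could not be tied to symbols. Below 1 CPM the median standard error was 0.54 on the log2 scale; the effect of depth on the number of calls was not tested.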

Other observations

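Genes present in only 1 of the groups were scarce. Of the 32552 genes listed, 69 had 0 reads in all control samples and at least 1 in every H2O2 sample, and 58 had the reverse. At 5 or more reads in every sample of the group that had any, the counts were 0 and 5.

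Of the called genes, 11 overlapped another called gene in 6 pairs, all on opposite strands, and in 4 pairs both changed in the same direction. ENSRNOG00000004731 and ENSRNOG00000004703 on chromosome 3 overlap by 13852 bases and were higher by 1.41 and 1.32 on the log2 scale. ENSRNOG00000000443 and ENSRNOG00000000442 on chromosome 20 overlap by 23975 bases and changed in opposite directions, by -0.85 and 0.86. These pairs were named after their values were seen.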
